A study of Mus musculus with 10 samples.

Results

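The 9 genes described here encode receptors, neuropeptides and a signalling protein of the striatum, and they are Drd1, Drd2, Adora2a, Penk, Tac1, Pdyn, Pnoc, Oprm1 and Ppp1r1b. They are 9 of 21896 protein-coding genes with a position in the RefSeq table used. A Dlx2-enriched region was assigned to a gene when its summit, the base of highest enrichment, lay within the gene body extended by 50 kb on each side. By this rule 18 summits of the 5 lists fell near the 9 genes, with 7 of 14795 regions in the E16 basal ganglia, 2 of 734 in the P3 olfactory bulb, 4 of 1666 in the E16 olfactory bulb, 2 of 2139 in the P3 cortex and 3 of 6333 in the E16 cortex. Each list comes from 1 chromatin immunoprecipitation and sequencing (ChIP-seq) library of dissected mouse tissue made with an anti-Dlx2 antibody, at embryonic day 16 (E16) or postnatal day 3 (P3). The labels state no genotype, strain or number of animals, and the matching input libraries were not analysed here. With 1 library per tissue and age there is no replicate and no test between lists. Read depth is unknown, so a gene with no region in a list may still be bound at a level that the peak calling did not reach. In whole tissue, fewer bound cells and weaker binding per cell cannot be told apart.

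Dlx2 is a homeodomain transcription factor of the embryonic ganglionic eminences, from which striatal projection neurons and the GABAergic interneurons of the cortex and olfactory bulb arise. Striatal projection neurons fall into a direct-pathway class, which expresses the dopamine receptor Drd1 and the precursors of substance P (Tac1) and dynorphin (Pdyn), and an indirect-pathway class, which expresses the dopamine receptor Drd2, the adenosine receptor Adora2a and the enkephalin precursor Penk. Ppp1r1b encodes DARPP-32, an inhibitor of protein phosphatase 1 that both classes use to relay dopamine signals. Oprm1 encodes the mu opioid receptor, which marks the striosome compartment, and Pnoc encodes the precursor of nociceptin, an opioid-like peptide.

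Of the 9 genes, 4 had a summit in any list, while Drd1, Drd2, Penk, Tac1 and Pdyn had none in any of the 5. Over all protein-coding genes, 49.7% had a summit in at least 1 list and 50.3% in none. The count of 4 is near this background and is no result about the 9 genes. Pnoc was found in all 5 lists, as were 0.653% of protein-coding genes. Ppp1r1b was found in 4 lists, Oprm1 in 3 and Adora2a in 1. Of the genes that separate the direct from the indirect class, Adora2a was thus the single one with a summit within 50 kb.

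The upstream sequences of 4 genes show the letters at starts with and without a region. RefSeq (GRCm38.p6) gave 9 annotated starts for 5 of the 9 genes, Drd1, Drd2, Tac1, Pdyn and Oprm1, and no region of any list overlapped the 250 bases before any of them. These bases were searched on both strands for TAAT, the core of homeodomain binding sites, and for TAATT and TAATTA, which contain it. Of 21262 such stretches before starts of protein-coding genes, 49.4% held TAAT, 22.2% TAATT and 4.30% TAATTA. Among the 9 starts, TAAT was present before 4, at Tac1, Pdyn and 2 overlapping Oprm1 starts, and TAATTA before that of Tac1. The stretches before Tac1 (chr6:7554811-7555060, plus strand), before a Pdyn start inside the gene (chr2:129698659-129698908, minus strand) and before an Oprm1 start (chr10:6788320-6788569, plus strand) are shown because they hold the core without a region over them. Arpp21, which encodes a cAMP-regulated phosphoprotein of striatal neurons and is not among the 9 genes, is shown beside them (chr9:112188348-112188597, minus strand) because 1 region of the E16 basal ganglia and 1 of the E16 cortex covered it. The same regions covered the stretches before other Arpp21 starts, which held more matches than the one shown. Those had 5 TAAT each and 2 or 3 TAATT, beside 2 TAAT and 0 TAATT here. Each is written from 5′ to 3′, with TAAT and its reverse complement ATTA in capitals.
Tac1: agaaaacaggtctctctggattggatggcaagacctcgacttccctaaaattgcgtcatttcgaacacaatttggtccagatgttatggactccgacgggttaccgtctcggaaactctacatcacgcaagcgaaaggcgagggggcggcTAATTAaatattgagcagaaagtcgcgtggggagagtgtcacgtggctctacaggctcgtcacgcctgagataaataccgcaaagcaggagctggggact
Pdyn: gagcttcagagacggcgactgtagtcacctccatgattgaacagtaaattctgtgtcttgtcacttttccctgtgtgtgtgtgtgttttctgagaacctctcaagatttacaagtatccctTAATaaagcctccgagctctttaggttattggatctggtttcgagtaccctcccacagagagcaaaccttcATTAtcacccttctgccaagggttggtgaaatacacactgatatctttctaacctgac
Oprm1: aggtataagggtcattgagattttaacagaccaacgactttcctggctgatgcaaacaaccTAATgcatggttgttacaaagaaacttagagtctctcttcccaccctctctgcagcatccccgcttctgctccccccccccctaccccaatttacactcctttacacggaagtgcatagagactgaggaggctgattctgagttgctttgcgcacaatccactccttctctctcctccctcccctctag
Arpp21: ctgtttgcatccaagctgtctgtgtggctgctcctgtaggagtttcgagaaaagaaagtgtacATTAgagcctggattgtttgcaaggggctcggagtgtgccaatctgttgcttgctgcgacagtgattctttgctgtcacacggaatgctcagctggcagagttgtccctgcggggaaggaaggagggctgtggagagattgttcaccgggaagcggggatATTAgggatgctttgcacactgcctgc
A match is a string of letters and was not tested as a binding site.

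Among the neuropeptide genes, Pnoc stood alone in holding a region in every list. Its region lay inside the gene on chromosome 14 (mm10 build, body 65400673 to 65425564), and the 5 summits fell between 65424075 and 65424162, a spread of 87 bp. They were 1.40 to 1.49 kb inside the higher-coordinate end of a body of 24.9 kb. The region spanned 65423761 to 65424392, 632 bp, and the stretch covered by all 5 lists was 225 bp long. The fold enrichment, a ratio over local background that the authors' peak caller gave, was 9.18 in the E16 basal ganglia, 5.99 in the P3 olfactory bulb, 3.93 in the E16 olfactory bulb, 3.65 in the P3 cortex and 5.00 in the E16 cortex. These ratios belong to their own lists and are not a scale between them. Read against its own list, the Pnoc region exceeded 89.8% of regions in the E16 basal ganglia and 55.6% in the P3 olfactory bulb, but 46.0% in the E16 cortex, 20.1% in the P3 cortex and 13.8% in the E16 olfactory bulb. It was therefore among the stronger regions in 1 list and below the middle of 3. The authors' −log10 q at the Pnoc summit was 28.7 in the E16 basal ganglia, 11.1 in the P3 olfactory bulb, 7.61 in the E16 olfactory bulb, 5.37 in the P3 cortex and 7.32 in the E16 cortex. With the 734 regions of highest −log10 q taken from each list, Pnoc was left in the P3 olfactory bulb alone. That list has 734 regions in all, so none of its regions could drop out. A weaker second region in the E16 basal ganglia list, with its summit at 65423488, had a fold enrichment of 3.52 and was in no other list. The next protein-coding gene, Zfp395, was 24.6 to 25.2 kb from the Pnoc summits, and Pnoc was the nearest gene in all 5 lists. A region found in all 5 lists was held within the body of 18 protein-coding genes, Pnoc included, and 34 of 18667 merged regions (0.182%) were in all 5 lists.

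**Figure D1:**
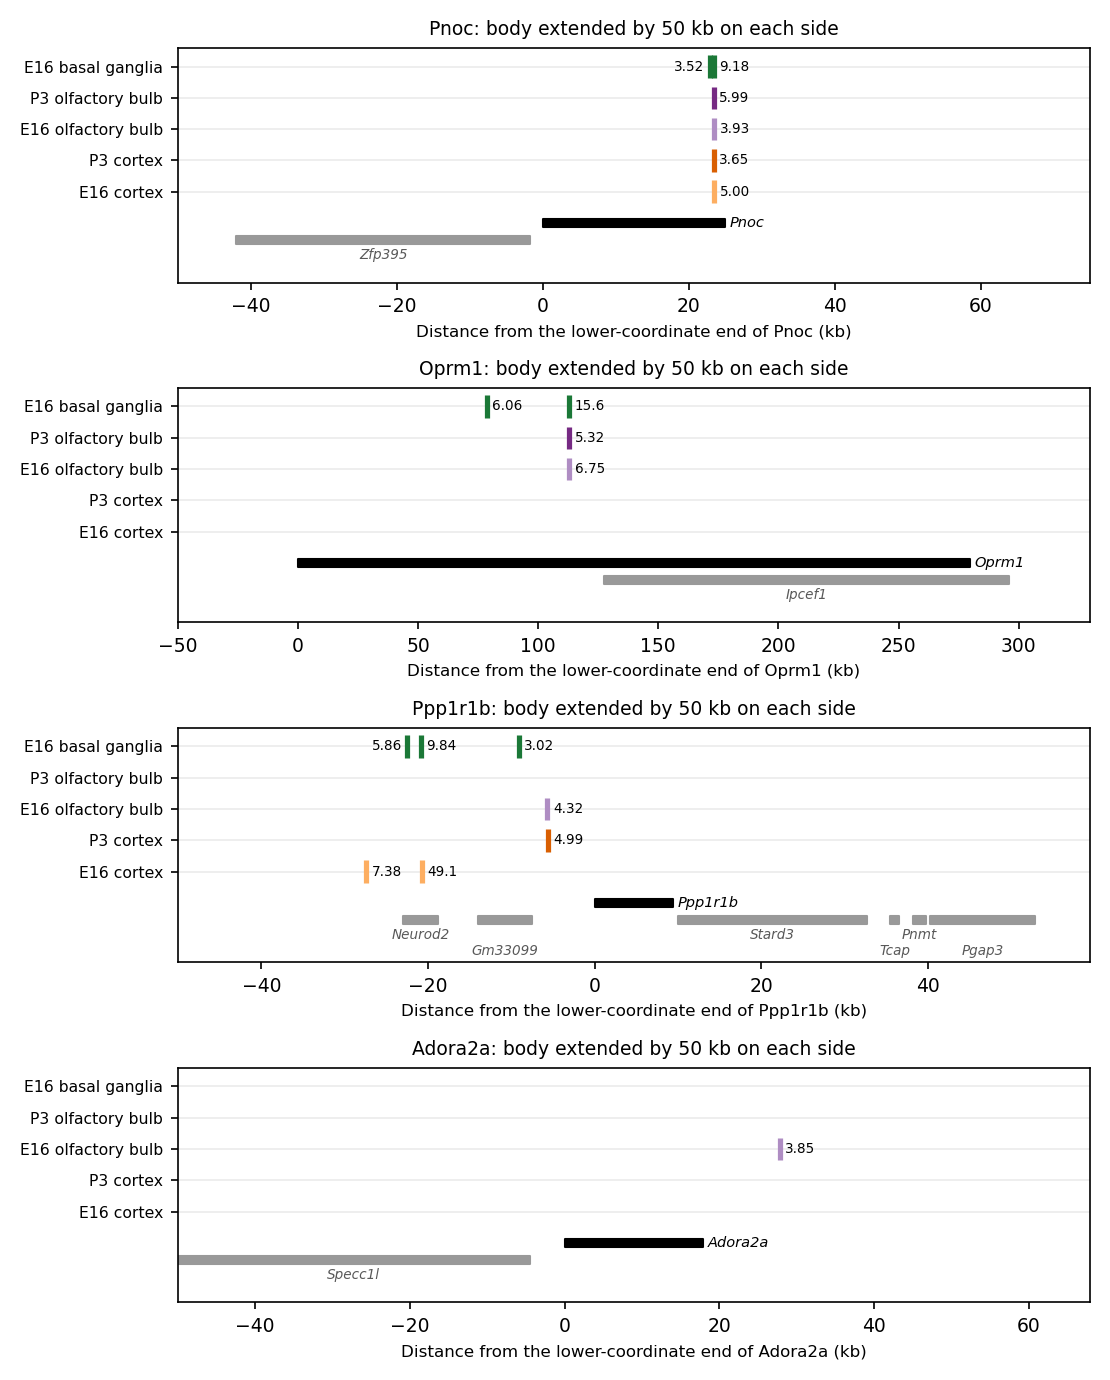
Dlx2 summits around the 4 genes with a region, 1 panel per gene. The x axis is the distance in kb from the lower-coordinate end of the gene body, each row is 1 list, coloured ticks are summits with the authors' fold enrichment printed beside them, and black and grey bars are the gene and its protein-coding neighbours. The ticks align within Pnoc in all 5 lists and within Oprm1 in 3, while those near Ppp1r1b lie at or beyond Neurod2, at Gm33099 and between Gm33099 and Ppp1r1b.

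The other peptide precursor genes had no summit within 50 kb, and of Penk, Tac1 and Pdyn it was Penk that lay farthest from a summit in 4 of the 5 lists, the exception being the P3 olfactory bulb, where Pdyn did. The nearest summit to Penk, on chromosome 4, was 1041 kb away in the E16 basal ganglia, 1824 kb in both the P3 and the E16 olfactory bulb, 2654 kb in the P3 cortex and 1043 kb in the E16 cortex. That of the E16 cortex had a fold enrichment of 1.82, above 0.079% of its list, and the gene nearest to it was Vmn1r2. For Tac1, on chromosome 6, the nearest summits were 199.7 kb away in the E16 basal ganglia and 187.7 kb in the P3 cortex, where Tac1 was the nearest protein-coding gene to both. In the remaining 3 lists the nearest summits to Tac1 were those of the Dlx5 and Dlx6 locus, 685.4 kb away in the P3 olfactory bulb, 672.9 kb in the E16 olfactory bulb and 676.8 kb in the E16 cortex, with fold enrichments of 13.4, 7.57 and 10.6 in that order. Dlx5 and Dlx6 encode homeodomain factors related to Dlx2. For Pdyn, on chromosome 2, the nearest summit was 102.1 kb away in the E16 basal ganglia, within Stk35, at a fold enrichment of 5.56. It was 2772 kb away in the P3 olfactory bulb, 467.7 kb in the E16 olfactory bulb, 769.7 kb in the P3 cortex and 466.7 kb in the E16 cortex.

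Of the 4 receptor genes among the 9, Oprm1 was the 1 with a summit inside its body, and it was found in the basal ganglia and both olfactory bulb lists but in neither cortex list. The region lay inside the gene on chromosome 10 (body 6758593 to 7038209, plus strand), at 6871309 to 6871887. The summits were at 6871584 in the E16 basal ganglia, 6871623 in the P3 olfactory bulb and 6871588 in the E16 olfactory bulb, within 39 bp of one another. They were 83.01 kb from the nearest annotated start in the E16 basal ganglia and 14.2 kb outside the neighbouring gene Ipcef1, whose body overlaps the far part of Oprm1. The fold enrichment was 15.6 in the E16 basal ganglia, above 97.8% of that list, with a −log10 q of 67.3. In the P3 olfactory bulb it was 5.32, above 37.9% of the list, and in the E16 olfactory bulb 6.75, above 77.9%. The E16 basal ganglia list also held a second summit inside Oprm1 at 6837230, with a fold enrichment of 6.06, above 73.0% of the list, which no other list shared. In the cortex the nearest summits to Oprm1 were 933.6 kb away at P3 and 2370.1 kb away at E16.

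The distances between shared summits at Pnoc and Oprm1 can be read beside the median distance over all overlapping regions of the same pair of lists, which ran from 40 to 162 bp over the 10 pairs. At Pnoc the distances were 7 to 87 bp, at or below the median in 7 of 10 pairs of lists and above it in 3. The 3 pairs above it all included the E16 olfactory bulb, as with its 78 bp from the P3 olfactory bulb summit, beside a median of 41 bp over 527 pairs of regions. The E16 basal ganglia and E16 cortex summits of Pnoc were 7 bp apart, beside a median of 162 bp over 4405 pairs of regions. At Oprm1 the distances were 4 to 39 bp, at or below the median in 3 of 3 pairs of lists. The pairs share summits, with 5 summits behind the 10 pairs at Pnoc, so they are not separate observations. Region width limits the distance between overlapping regions and was not matched.

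Adora2a had a single region, in the E16 olfactory bulb. It covered 75344577 to 75344924 on chromosome 10, 348 bp, with its summit 9.92 kb beyond the higher-coordinate end of the gene, and Adora2a was the nearest protein-coding gene. Its fold enrichment of 3.85 exceeded 12.2% of the E16 olfactory bulb list. The nearest summits to Adora2a in the remaining lists were 133.9 kb away in the E16 basal ganglia and 134.5 kb in the E16 cortex, both within Bcr, 109.9 kb in the P3 olfactory bulb and 369.6 kb in the P3 cortex.

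Drd1 and Drd2, the dopamine receptor genes among the 9, had no summit within 50 kb, and the shortest distance was 96.5 kb. For Drd1, on chromosome 13, the nearest summit was 127.04 kb away in the E16 basal ganglia, 200.3 kb in the P3 olfactory bulb, 170.5 kb in the E16 olfactory bulb, 315.9 kb in the P3 cortex and 526.6 kb in the E16 cortex. The E16 basal ganglia and E16 olfactory bulb summits lay on the lower-coordinate side, where Drd1 was the nearest protein-coding gene, and had fold enrichments of 4.26 and 7.36. For Drd2, on chromosome 9, the nearest summits of 4 lists lay within Ncam1, a cell adhesion molecule gene. They were 96.5 kb from Drd2 in the E16 basal ganglia and 96.7 kb in the E16 cortex, with fold enrichments of 4.66 and 5.00. In the olfactory bulb they were 193.2 kb away at P3 and 193.3 kb at E16, at 6.19 and 5.73. In the P3 cortex the nearest summit was 603.7 kb from Drd2, within Zbtb16. Beside the Drd1 and Drd2 distances stand the medians over all protein-coding genes, 76.5, 1358, 743.2, 434.9 and 214.1 kb in the order of lists given for Drd1. Among the nearest summits of the 9 genes in each list, the 96.5 kb of Drd2 was the shortest distance outside the 50 kb limit. Among all summits inside the limit, the longest distance was the 27.4 kb of an E16 cortex summit from Ppp1r1b. Further summits lay between 50 and 100 kb. Windows of 100 kb held 11 summits in the E16 basal ganglia, beside 7, and 6 in the E16 cortex, beside 3.

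**Figure D2:**
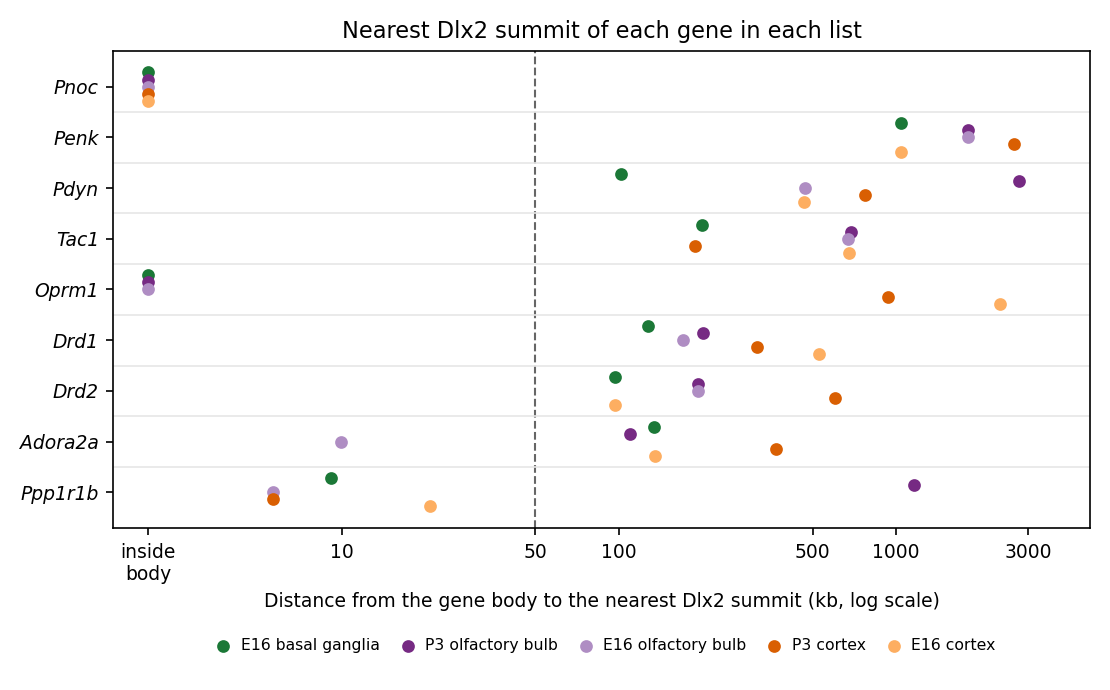
Distance in kb, on a log scale, from each gene body to the nearest Dlx2 summit of each list. Points at the left edge stand for summits inside the body and have no distance, and the dashed line is the 50 kb limit. Pnoc has all 5 points at the left edge and Oprm1 has 3, while Penk has all 5 at 1041 kb or more.

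Near Ppp1r1b, on chromosome 11 (body 98348406 to 98357796), the regions lay at neighbouring genes. All 7 summits were nearer to another protein-coding gene than to Ppp1r1b, and none was inside it. The strongest was a wide region of the E16 cortex, 98323726 to 98328944, with a fold enrichment of 49.1 and a −log10 q of 280.3, and its summit lay 20.8 kb from Ppp1r1b within Neurod2, a basic helix-loop-helix gene of glutamatergic neurons. It ranked 11 by fold enrichment among 6333 regions. The E16 basal ganglia list had 2 regions in the same place, with fold enrichments of 9.84 and 5.86, and both summits lay within Neurod2. A further E16 cortex summit was 4.395 kb beyond Neurod2 (fold enrichment 7.38), and a further E16 basal ganglia summit lay within the predicted gene Gm33099 (3.02, above 3.81% of the list). The summits closest to Ppp1r1b came from the P3 cortex, at 98342764 and 5.64 kb from the gene, and from the E16 olfactory bulb, at 98342736 and 5.67 kb from it. They were 28 bp apart, within the predicted non-coding RNA gene Gm38970. Their fold enrichments were 4.99 in the P3 cortex, above 64.9% of that list, and 4.32 in the E16 olfactory bulb, above 25%. All peak names of the E16 olfactory bulb list carry a mark for removed duplicate reads and none of the P3 cortex list does, and the part of this difference in the shared region was not tested. The P3 olfactory bulb had its nearest summit 1160 kb from Ppp1r1b.

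**Figure D3:**
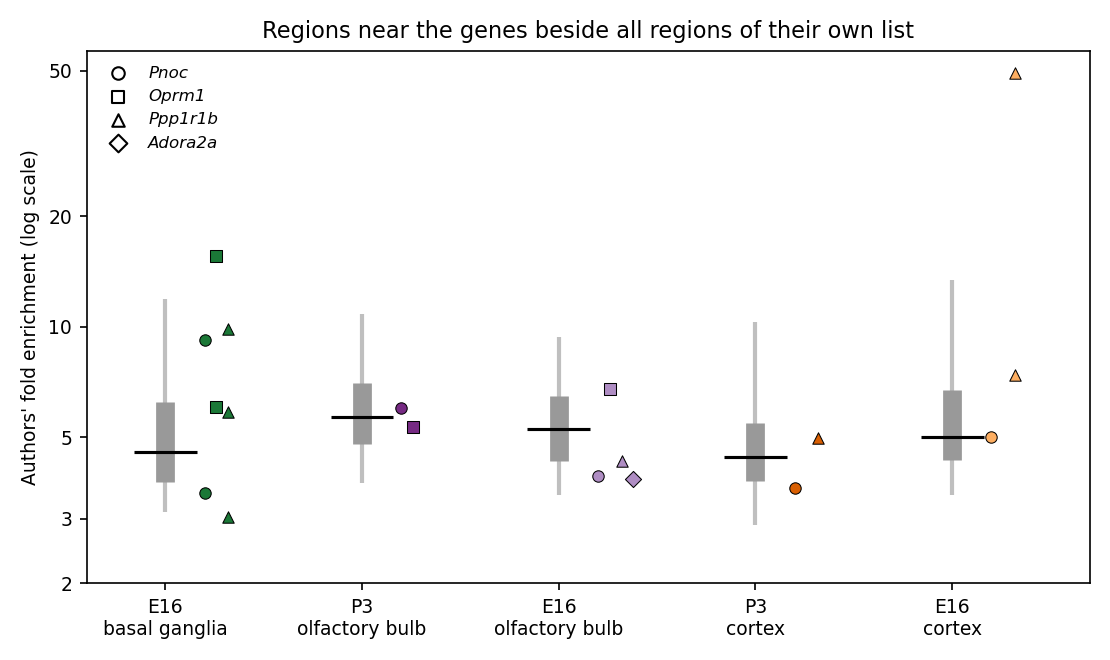
The authors' fold enrichment (log scale) of the 18 regions near the genes, as symbols by gene, beside all regions of the same list. Thick grey bars span the middle 50% of the list, thin bars the 5th to 95th percentile, and black lines the median. The Oprm1 region of the E16 basal ganglia (15.6) and the Ppp1r1b region of the E16 cortex at Neurod2 (49.1) lie above the 95th percentile of their lists.

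Regions near the 9 genes spanned the range of their lists, with 10 of 18 at or above the median fold enrichment of their own list and 8 below it. The widths ran from 301 to 5219 bp, and the 2 regions over 1 kb were those at Neurod2. Joined by overlaps of at least 1 bp, the 18 regions with a summit in the windows formed 9 merged regions, of which 4 were in 2 or more lists (44.4%), against 5066 of 18667 merged regions (27.1%) in the whole data. Those 4 lay within Pnoc, within Oprm1, at Neurod2 and within Gm38970, on the lower-coordinate side of Ppp1r1b. Without the P3 cortex list, whose peak names carry no mark for removed duplicate reads, 3 of 9 were in 2 or more lists, and the one within Gm38970 was no longer among them.

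Set beside all genes, the 9 genes had lower shares with a summit in the 2 long lists and higher shares in the 3 short ones. In the E16 basal ganglia, the tissue that holds the developing striatum, 3 of 9 genes had a summit (33.3%), and 42.4% of protein-coding genes did. In the E16 cortex 2 of 9 had one (22.2%), beside 28.7%. These shares are near or below the background and are no result about the 9 genes. In the shorter lists the shares were above the background, at 2 of 9 in the P3 olfactory bulb (22.2%, beside 3.98%), 4 of 9 in the E16 olfactory bulb (44.4%, beside 6.62%) and 2 of 9 in the P3 cortex (22.2%, beside 12.3%). These counts rest on Pnoc in all 3 lists, on Oprm1 in the 2 bulb lists, on Ppp1r1b in the E16 olfactory bulb and P3 cortex and on Adora2a in the E16 olfactory bulb. They were not tested, since the genes were chosen with results known. Oprm1 has a body of 279.6 kb and so a larger window than the other 8 genes. Of the 7 genes with a body of 4 to 30 kb, which leaves out Oprm1 and Drd2, 3 had a summit in any list, beside 50.2% of the 10167 protein-coding genes of that length, and 4 had none, beside 49.8%. By list they were 2 of 7 in the E16 basal ganglia (beside 42.6%), 1 in the P3 olfactory bulb (3.23%), 3 in the E16 olfactory bulb (4.71%), 2 in the P3 cortex (10.4%) and 2 in the E16 cortex (33.1%). With summits inside the gene body alone, Pnoc and Oprm1 were left, giving 2 of 9 in the E16 basal ganglia (17.9% of all protein-coding genes), 2 of 9 in the P3 olfactory bulb (1.42%) and 2 of 9 in the E16 olfactory bulb (2.69%). Pnoc was the 1 gene left in the P3 cortex (3.76%) and in the E16 cortex (11.2%). By this stricter rule 2 of 9 were in any list, beside 21.8%, 7 were in none, beside 78.2%, and Pnoc was in all 5, beside 0.178%.

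The windows of the 9 genes held 5.26 summits per Mb in the E16 basal ganglia, beside 8.87 over the windows of all protein-coding genes. In the P3 olfactory bulb the density was 1.50, beside 0.298, and in the E16 olfactory bulb 3.01, beside 0.539. It was 1.50 in the P3 cortex, beside 0.979, and 2.25 in the E16 cortex, beside 6.07. The density was thus above that of all genes in the 3 shorter lists and below it in the 2 long ones. These densities rest on 7, 2, 4, 2 and 3 summits in the order given and were not tested. They include the summits near Ppp1r1b, all of which were nearer to another gene.

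**Figure D4:**
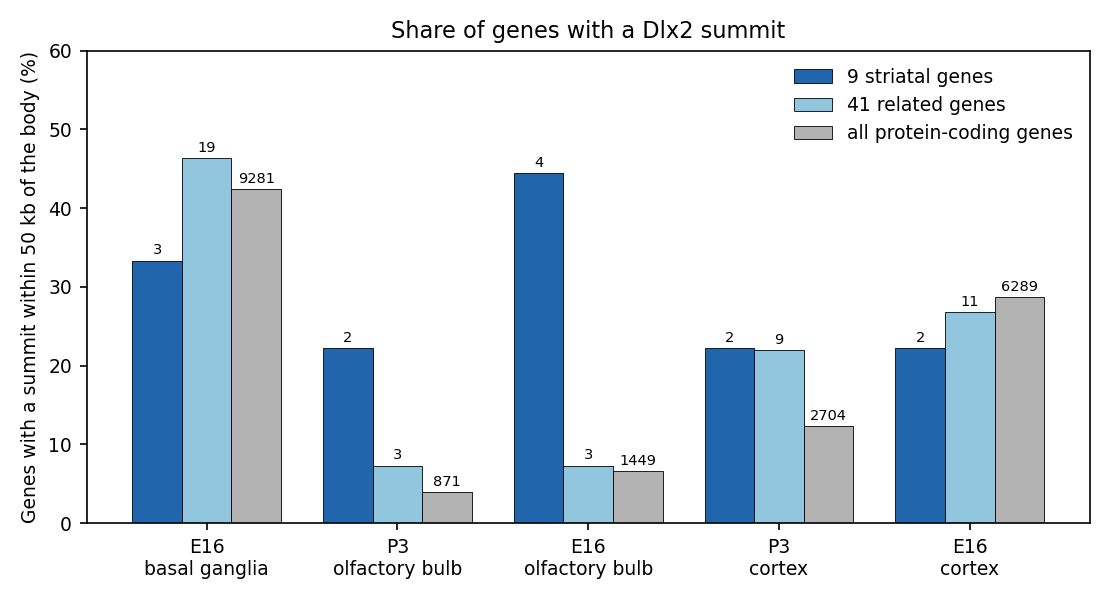
Percentage of genes with a Dlx2 summit within the body extended by 50 kb, by list, for the 9 striatal genes, 41 related genes and 21896 protein-coding genes, with the number of genes above each bar. In the E16 olfactory bulb the share was 44.4% for the 9 genes, 7.32% for the related genes and 6.62% for all genes.

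A set of 41 further genes of the same signalling systems gave the setting of the 9 genes. Of these, 19 had a summit in the E16 basal ganglia (46.3%), 3 in the P3 olfactory bulb (7.32%), 3 in the E16 olfactory bulb (7.32%), 9 in the P3 cortex (22.0%) and 11 in the E16 cortex (26.8%). Among the opioid peptide precursor genes, Pomc had no summit in any list, so Pnoc was the 1 of 4 with any. The shares of all protein-coding genes to set beside these groups are 49.7% for a summit in any list, 42.4% in the E16 basal ganglia, 3.98% in the P3 olfactory bulb, 6.62% in the E16 olfactory bulb, 12.3% in the P3 cortex and 28.7% in the E16 cortex. The group counts were not tested against them. All 4 opioid receptor genes together gave 3 with a summit, Oprm1 and, chosen here after their values were seen, Oprd1 and Oprl1. The E16 basal ganglia list had a summit inside Oprd1, the delta opioid receptor gene, with a fold enrichment of 9.70. Near Oprl1, which encodes the receptor for nociceptin, both E16 basal ganglia summits lay within the neighbouring gene Myt1. Of the 5 dopamine receptor genes 2 had a summit in any list, of the 4 adenosine receptor genes 2, and of the 6 tachykinin precursor and receptor genes 2. The summits near Drd4 lay within Deaf1 and Irf7, and that near Tac2 was nearest to Nemp1. Those of Drd3 lay inside the gene, and Tac4 was the nearest protein-coding gene to its summit. Of the 8 other neuropeptide precursor genes 2 had a summit in any list, Npy and Cck, while that of somatostatin (Sst) had none. The Npy summits were in the E16 basal ganglia, and the stronger of them lay inside the gene. Near Cck, all E16 cortex summits and most of those of the E16 basal ganglia were nearest to Trak1.

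The cAMP and DARPP-32 signalling genes were the group with most members found, at 12 of 13 in at least 1 list, Ppp1r1b included, beside 49.7% of all protein-coding genes. They gave 10 of 13 in the E16 basal ganglia (beside 42.4%), 3 in the P3 olfactory bulb (3.98%), 2 in the E16 olfactory bulb (6.62%), 6 in the P3 cortex (12.3%) and 7 in the E16 cortex (28.7%). These counts were not tested, and no share matched for body length was computed for this group, in which Pde10a and Arpp21 have long bodies. A smaller group, the other striatal G protein-coupled receptor genes, gave 5 of 6 in at least 1 list, also not tested. It had 5 of 6 in the E16 basal ganglia, 2 in the E16 olfactory bulb, 2 in the E16 cortex and none in either P3 list. In that group the Chrm1 summits were nearest to Slc3a2 and those of Gpr52 lay within Rabgap1l. The Arpp19, Cdk5 and Pde1b summits lay within the neighbouring genes Myo5a, Slc4a2 and Nckap1l, in that order. Those near Ppp1r1b were all nearer to another gene. Pde10a, the phosphodiesterase gene of striatal projection neurons, was in all 5 lists like Pnoc. A region inside Pde10a on chromosome 17 had its summit at 8598038 in the E16 basal ganglia, 8598055 in the P3 olfactory bulb, 8598027 in the E16 olfactory bulb and 8598109 in the P3 cortex. Its fold enrichment was 7.62, 4.48, 4.74 and 4.51 in that order, and the E16 cortex summits of Pde10a lay elsewhere in the gene. Pde10a also had the highest fold enrichment of the 41 genes in both olfactory bulb lists. Arpp21 had 12 summits in the E16 basal ganglia, 1 in the P3 olfactory bulb and 10 in the E16 cortex, with the strongest at 16.4 in the E16 basal ganglia and 24.8 in the E16 cortex. The E16 cortex value was the highest of the 41 genes in that list. Prkar2b, a regulatory subunit gene of protein kinase A, was found in the E16 basal ganglia, P3 cortex and E16 cortex, with 2, 1 and 2 summits. Those of the E16 basal ganglia and P3 cortex lay inside Prkar2b, and both E16 cortex summits lay within the neighbouring gene Cog5. Prkaca, a catalytic subunit gene of protein kinase A, was found in 4 lists. The strongest summits in the Prkaca window, 16.6 in the E16 basal ganglia and 19.1 in the E16 cortex, lay within 1700067K01Rik. Summits in the window of Ppp1ca, a protein phosphatase 1 catalytic subunit gene found in 3 lists, also lay at its neighbours Ptprcap, Rps6kb2, Rad9a and Pold4. In the P3 cortex the highest value, 7.91 in the window of Adora2b, lay within Zswim7.

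As a check of the tissues, the GABAergic genes Gad1, Gad2 and Slc32a1 had a summit within 50 kb in 3 of 3 cases in the E16 basal ganglia, 2 of 3 in both olfactory bulb lists and 3 of 3 in the E16 cortex. In the P3 cortex they had none. Of 5 glutamatergic genes, 4 had one in the E16 basal ganglia, 0 in the P3 olfactory bulb, 1 each in the E16 olfactory bulb and the P3 cortex, and 5 in the E16 cortex. Of 24 markers of glia, microglia, endothelium, liver and muscle, 8 had one in the E16 basal ganglia, 0 in the P3 olfactory bulb, 2 in the E16 olfactory bulb, 2 in the P3 cortex and 6 in the E16 cortex. Beside these stand the shares of all protein-coding genes, 42.4% in the E16 basal ganglia, 3.98% in the P3 olfactory bulb, 6.62% in the E16 olfactory bulb, 12.3% in the P3 cortex and 28.7% in the E16 cortex.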

How the data were processed

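Dlx2 ChIP-seq of mouse brain tissue gave 1 list of enriched regions per tissue and age, in 5 libraries. The submitters' processing notes name Trimmomatic, Bowtie2, SAMtools and MACS2, without versions or roles, and the mm10 build. Reads were single-ended and 50 nucleotides long, per the labels. No label or header states the calling threshold or the control library of a list. The deposited narrowPeak files hold, per region, a fold enrichment (a ratio of signal over local background) and −log10 p and −log10 q values, as MACS2 writes them. The deposited score column was not used. The values are the authors' own and were used within each list alone.

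The 9 genes and all gene lists were chosen with earlier results of these data known. Gene positions are those of RefSeq for GRCm38.p6 (the mm10 build), with 21896 placed protein-coding genes. The table has no strand or exons, and strand and starts came from the RefSeq promoter table. A gene was found in a list if at least 1 summit fell in its body or the 50 kb on either side. Backgrounds use all protein-coding genes under the same rule. Regions of different lists were merged when they overlapped by at least 1 bp. Coordinates are counted from 1. Named genes were the 9 genes, the nearest gene of each of their summits, and the related genes found in 3 or more lists or with the highest fold enrichment of a list. Other related genes, such as Oprd1 and Arpp19, were named after their values were seen. Gene counting was checked on simulated summits. Other window sizes, stricter thresholds, equal list lengths, nearest-gene assignment and stricter overlap were tried. Python 3.11.15 with pandas 2.3.3 and NumPy 2.4.6 was used.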

Additional observations from a re-analysis of the deposited data

How the results depend on the processing

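No paired analysis was possible because each tissue and age has 1 library. Of 95 alternative values, 62 were within 1.5 times the reported count and 33 were not. For genes with a summit, the reported counts were 3 in the E16 basal ganglia, 2 in the P3 olfactory bulb, 4 in the E16 olfactory bulb, 2 in the P3 cortex and 2 in the E16 cortex. Summits inside the body alone gave 2 in the E16 olfactory bulb, 1 in the P3 cortex and 1 in the E16 cortex. Windows of 10 kb gave 1 in the E16 cortex. A fold enrichment of at least 5 gave 1 in the E16 olfactory bulb, 0 in the P3 cortex and 1 in the E16 cortex. The 734 regions of each list with the highest −log10 q gave 1 in each of the E16 basal ganglia, E16 olfactory bulb, P3 cortex and E16 cortex. Nearest-gene assignment gave 1 in the P3 cortex and 1 in the E16 cortex. For the number of summits, reported as 7, 2, 4, 2 and 3 in the same order of lists, the body alone gave 4 in the E16 basal ganglia, 2 in the E16 olfactory bulb, 1 in the P3 cortex and 1 in the E16 cortex. Windows of 10 kb gave 1 in the E16 cortex, and windows of 100 kb gave 11 in the E16 basal ganglia and 6 in the E16 cortex. A fold enrichment of at least 5 gave 1 in the E16 olfactory bulb and 0 in the P3 cortex. The same 734 regions per list gave 1 in each of the 4 longer lists. Nearest-gene assignment gave 4 in the E16 basal ganglia, 1 in the P3 cortex and 1 in the E16 cortex. Related genes with a summit numbered 6 in the E16 cortex, 4 in the P3 cortex and 1 in the P3 olfactory bulb with windows of 10 kb, and 6 in the E16 olfactory bulb with windows of 100 kb. The merged regions in 2 or more lists numbered 3 or 4 under every alternative, including the one without the P3 cortex list, which was chosen after seeing the data, as was the background of genes with a body of 4 to 30 kb. Pnoc was in all 5 lists with a −log10 q of at least 5, but not with a fold enrichment of at least 5, where it was left in the E16 basal ganglia and P3 olfactory bulb. With 734 regions per list Pnoc was left in the P3 olfactory bulb alone, Oprm1 in the E16 basal ganglia and both olfactory bulb lists, and Ppp1r1b in both cortex lists. The P3 olfactory bulb list has 734 regions in all, so this setting could remove none of them. Fewer regions enter under the stricter thresholds and smaller windows by construction.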
